A study of Homo sapiens with 16 samples.

Results

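CGREF1, FAM127C, TMEM132E, SLC19A3, CLDN1 and STAC, 6 genes picked because their RNA was higher in both of 2 knockouts of HAP1 cells, were followed across the 16 RNA libraries of that study. The 6 genes are found by symbol among the 33121 entries of the deposited count table, and all 6 were among the 15569 tested genes. HAP1 is a near-haploid human line derived from a chronic myeloid leukaemia line. The groups are cells deleted for SLC30A10, which encodes a cell-surface manganese exporter (genotype SLC30A10_delta in the labels), SLC30A10+/+ control cells, cells deleted for another gene (the second knockout) and their own control cells (the second control set), with 4 libraries each. One cell line identifier is shared by the control sets and each deletion has another, so that each deletion is 1 line. The number of independent clones is not stated. All lines were grown in IMDM with serum and antibiotics, with no treatment named. The labels do not say whether replicates came from separate cultures, so p-values measure only the spread between these libraries, which may be technical.

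The 6 genes have separate roles. SLC19A3 encodes a plasma membrane transporter of thiamine (vitamin B1), which cells convert to the cofactor of pyruvate dehydrogenase, the oxoglutarate and branched-chain keto acid dehydrogenases and transketolase. Loss of SLC19A3 causes a thiamine-responsive disease of the basal ganglia. CLDN1 encodes claudin-1, a membrane protein of the tight junction that seals the space between epithelial cells. STAC encodes an adaptor with an SH3 domain, found mainly in neurons, that binds L-type calcium channels. TMEM132E encodes a single-pass membrane protein needed for hearing. FAM127C, now named RTL8B, is an X-linked gene derived from the gag gene of an ancient retrotransposon. CGREF1 encodes a secreted EF-hand protein named as a regulator of cell growth.

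The genes lie on 4 chromosomes, here in GRCh38.p14 coordinates of RefSeq, and the submitters' processing notes name the same build. CGREF1 is at chr2:27099353-27119128 and SLC19A3 at chr2:227683763-227718028, both on the minus strand. CLDN1, also on the minus strand, is at chr3:190305707-190322446, and STAC is on the plus strand at chr3:36380504-36548007. TMEM132E is on the plus strand at chr17:34579582-34639318. FAM127C is on the minus strand at chrX:135020513-135022542. CGREF1 overlaps KHK, and CLDN1 overlaps CLDN16. Since the use of strand in counting is not stated, reads in the overlaps cannot be assigned to one gene with certainty. Of 1927 windows of 100 bases, the read length, in the longest FAM127C transcript of GENCODE v29, 8 (0.415%) also occur in a transcript of another gene, FAM127B (RTL8A). The share was 4.43% for CGREF1, all with KHK, and 0 windows were shared for the other 4 genes.

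Because the 6 RNAs were high in the same libraries, the 250 bases before each RefSeq start were set side by side. They were searched on both strands for 6 motifs. These were the metal response element core (TGCACNC or TGCGCNC), the antioxidant response element core (TGACNNNGC), the amino acid response element core (TGATGNAA), the E-box (CACGTG), the GC box (GGGCGG) and the TATA box (TATAAA). Each sequence below is printed in the direction of transcription, with matches in capitals.
CGREF1: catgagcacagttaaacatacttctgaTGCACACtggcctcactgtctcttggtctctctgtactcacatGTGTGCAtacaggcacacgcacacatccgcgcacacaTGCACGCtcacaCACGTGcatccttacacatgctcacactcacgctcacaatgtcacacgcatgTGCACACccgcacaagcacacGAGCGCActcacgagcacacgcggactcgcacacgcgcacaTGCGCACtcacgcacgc
FAM127C: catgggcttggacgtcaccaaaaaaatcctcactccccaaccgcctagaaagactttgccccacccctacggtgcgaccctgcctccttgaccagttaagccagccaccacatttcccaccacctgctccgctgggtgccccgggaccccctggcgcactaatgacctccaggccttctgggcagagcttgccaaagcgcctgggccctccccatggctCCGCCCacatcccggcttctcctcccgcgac
TMEM132E: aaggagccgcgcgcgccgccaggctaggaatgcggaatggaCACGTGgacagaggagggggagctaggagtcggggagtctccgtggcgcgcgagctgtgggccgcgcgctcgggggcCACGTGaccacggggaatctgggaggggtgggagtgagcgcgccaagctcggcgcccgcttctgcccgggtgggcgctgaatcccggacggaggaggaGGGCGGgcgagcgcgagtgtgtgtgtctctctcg
SLC19A3: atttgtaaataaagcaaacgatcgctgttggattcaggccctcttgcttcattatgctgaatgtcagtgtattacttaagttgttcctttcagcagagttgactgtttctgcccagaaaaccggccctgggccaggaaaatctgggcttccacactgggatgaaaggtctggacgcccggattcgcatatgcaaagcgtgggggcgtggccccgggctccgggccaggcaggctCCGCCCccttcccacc
CLDN1: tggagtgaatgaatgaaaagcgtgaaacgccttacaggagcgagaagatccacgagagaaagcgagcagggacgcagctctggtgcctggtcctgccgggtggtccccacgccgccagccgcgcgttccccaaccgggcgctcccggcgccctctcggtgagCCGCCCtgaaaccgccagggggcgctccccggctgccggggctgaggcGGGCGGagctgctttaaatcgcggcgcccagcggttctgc
STAC: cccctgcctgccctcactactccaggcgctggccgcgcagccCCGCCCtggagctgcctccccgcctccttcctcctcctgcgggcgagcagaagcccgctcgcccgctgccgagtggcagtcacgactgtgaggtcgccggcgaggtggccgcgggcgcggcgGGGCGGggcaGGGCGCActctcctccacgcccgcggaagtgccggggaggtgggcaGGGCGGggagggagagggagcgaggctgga
The windows are chr2:27119129-27119378 for CGREF1, chrX:135022543-135022792 for FAM127C, chr17:34579332-34579581 for TMEM132E, chr2:227718029-227718278 for SLC19A3, chr3:190322447-190322696 for CLDN1 and chr3:36380254-36380503 for STAC. No motif of the 6 was found in all 6 windows. The GC box occurred in 5, all but CGREF1, and in 42.3% of 27305 RefSeq promoters of the same length. The metal response element core was found in CGREF1, with 6 matches spread from 223 to 11 bases before the start, and in STAC, with 1 match. It occurs in 24.7% of all windows. E-boxes were found in CGREF1 (1 match) and TMEM132E (2 matches) and occur in 6.49% of all windows. The antioxidant core (11% of all windows), the amino acid core (3.19%) and the TATA box (11.1%) were not among the letters of these windows. The windows held 32 CpG dinucleotides in TMEM132E, 28 each in CLDN1 and STAC, 19 in CGREF1, 12 in FAM127C and 11 in SLC19A3, against a median of 11 over all promoters. No match overlapped a match of another motif. A match is a description of the letters only.

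Libraries held 16058856 to 16648151 counts each. A count of 3 corresponded to 0.181 to 0.187 CPM, where CPM is counts per 1000000 of the scaled library size, and such limits cover counting error only. SLC30A10 itself had 3 to 11 counts in the libraries of its knockout and 6 to 9 in its control set, so its RNA level does not check the labels. Markers of blood cells were near 0, with summed levels of 0.0605 to 0.549 CPM for 7 genes in any library, and PTPRC, SPI1 and MPO had at most 2 counts. The 5 skeletal muscle markers summed to at most 0.363 CPM. The 7 mesenchymal markers, VIM and CDH2 among them, summed to 1057 to 1097 CPM in the SLC30A10 control set and 661 to 680 CPM in that knockout. They summed to 778 to 946 CPM in the second control set and 928 to 1136 CPM in the second knockout. VIM was the largest part of each sum. In the SLC30A10 knockout VIM (-0.82), CDH2 (-0.78) and FN1 (-1.44, log2) passed (edgeR, adjusted p under 0.05). ZEB1 (0.02), ZEB2 (0.03), TWIST1 (0.02) and COL1A1 (-0.14) did not pass there. In the second knockout VIM (0.26), CDH2 (0.22), ZEB1 (0.37), ZEB2 (0.16) and TWIST1 (0.23) passed, and FN1 (0.16) and COL1A1 (-0.20) did not. In bulk RNA, more cells with a transcript and more transcript per cell cannot be told apart.

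The 6 genes were chosen by their fold changes in both knockouts, so their fold changes are given as a description, with no test. All but CGREF1 were the 5 genes whose smaller log2 fold change of the 2 knockouts was largest among 179 genes that passed an adjusted p of 0.05 upward in both, averaged 5 CPM or more in each comparison and did not overlap between knockout and control. CGREF1 lay below that level, with a mean of 1.87 CPM in the second comparison. Over all tested genes 41.4% passed in the SLC30A10 knockout, 21.2% higher and 20.2% lower. In the second knockout 13.7% passed, 6.67% higher and 7.03% lower, and 1.92% of tested genes were higher in both (edgeR quasi-likelihood test, Benjamini-Hochberg). Just inside the choice, STAC had a smaller log2 fold change of 1.61. Just outside it were SYT11 at 1.37, ANKRD34B at 1.26 and a numbered further entry of PRAME (PRAME-2) at 1.23. Knockout libraries lay wholly above their control libraries for 19.7% of tested genes in the SLC30A10 experiment, for 7.60% in the second and for 2.00% in both. All 8 knockout libraries lay above all 8 control libraries for 0.963% of tested genes. The 6 genes are among these, which the choice largely fixed.

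**Figure D1:**
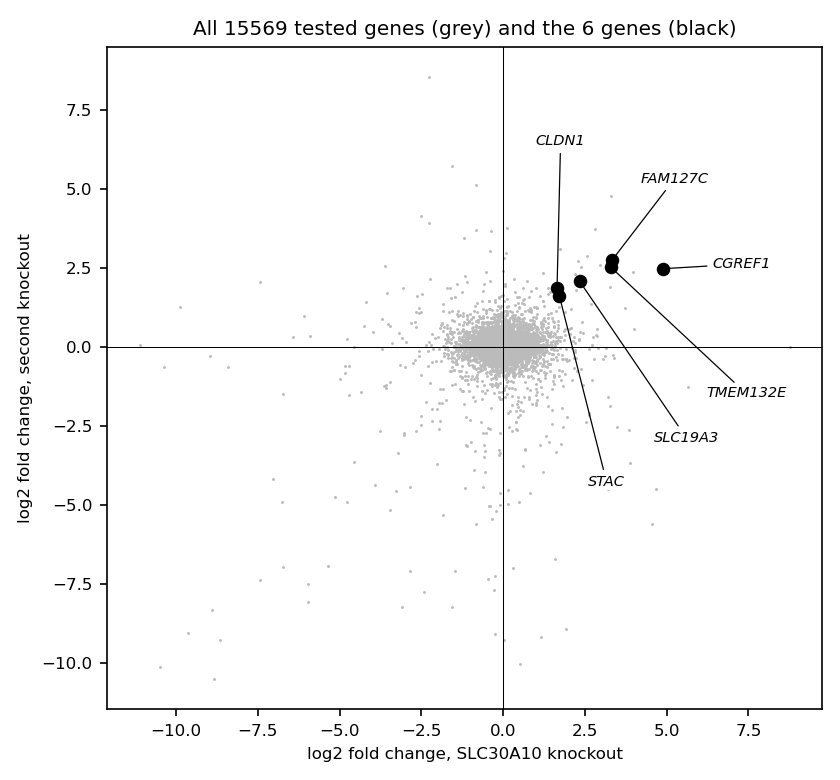
Log2 fold change of each knockout against its own control set, with the SLC30A10 knockout on the horizontal axis and the second knockout on the vertical axis, for 15569 tested genes (grey) and the 6 genes (black). The 6 genes lie in the upper right quadrant, where CGREF1 is furthest to the right at 4.88 and FAM127C highest of the 6 at 2.74.

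SLC19A3, the thiamine transporter, was read at 4.45, 3.22, 2.99 and 3.48 CPM in the SLC30A10 control libraries and at 18.1, 18.7, 17.7 and 17.2 CPM in the SLC30A10 knockout. In the second experiment it had 1.96, 2.67, 3.37 and 3.46 CPM in the controls and 15, 12.3, 10.8 and 10.7 CPM in the knockout. Every knockout library exceeded every control library of either experiment, and the lowest knockout library was 2.4 times the highest control library. The group means were 3.53 ± 0.642 and 17.9 ± 0.646 CPM (SD, n = 4) in the SLC30A10 experiment, which is a log2 fold change of 2.34 ± 0.13 (SE). In the second experiment they were 2.87 ± 0.702 and 12.2 ± 2.00 CPM (SD, n = 4), which is a log2 fold change of 2.08 ± 0.14 (SE). From low to high, the level ran from the second control set to the SLC30A10 control set, the second knockout and the SLC30A10 knockout. Only the control sets overlapped among neighbours in that order.

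CLDN1, the claudin, had 4.26, 4.80, 4.15 and 5.12 CPM in the SLC30A10 control libraries and 14.9, 15, 13.9 and 13.8 CPM in the knockout. The second control libraries held 3.24, 2.18, 3.25 and 2.37 CPM and the second knockout 9.91, 10.9, 9.14 and 10.8 CPM. Here none of the 4 groups overlapped with its neighbour in the order of levels, which was the same as for SLC19A3. The lowest knockout library stood 1.79 times above the highest control library, the smallest such ratio of the 6 genes. Means rose from 4.58 ± 0.457 to 14.4 ± 0.606 CPM (SD, n = 4) in the SLC30A10 experiment and from 2.76 ± 0.567 to 10.2 ± 0.840 CPM in the second. The log2 fold changes were 1.65 ± 0.10 and 1.88 ± 0.12 (SE). The summed level of 7 epithelial markers was 56.8 to 64.9 CPM in the SLC30A10 control set and 63.8 to 72.6 CPM in the knockout, and 54.1 to 59.2 CPM in the second control set and 43.3 to 47.4 CPM in the second knockout. CDH1, GRHL2 and KRT19, defining markers of epithelium, had at most 5 counts in any library. The tested markers moved apart in the SLC30A10 knockout, where EPCAM fell by 2.18 and ESRP1 fell by 0.29 on the log2 scale while KRT8 rose by 0.36 and KRT18 by 0.26 (edgeR, adjusted p under 0.05). EPCAM was low throughout, with means of 1.22 CPM in that control set and 0.263 CPM in the knockout. A count of 3 is 0.181 to 0.187 CPM, so its fall rests on few counts. The second knockout had KRT8 lower, with a log2 fold change of -1.35, and KRT18 lower, with -0.22, while EPCAM (0.41) and ESRP1 (-0.18) did not pass. The part of these markers in the rise of CLDN1 was not tested.

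STAC, the calcium channel adaptor, had 6.09, 6.13, 6.16 and 7.19 CPM in the SLC30A10 control libraries and 21.3, 22.1, 20.4 and 20.7 CPM in the knockout. Second control libraries held 7.22, 8.55, 6.81 and 6.26 CPM, and libraries of the second knockout 21.5, 23.2, 21.3 and 21.9 CPM. Both control sets overlapped, both knockouts overlapped, and the knockouts lay wholly above the controls. STAC was the only one of the 6 genes whose mean was higher in the second knockout than in the SLC30A10 knockout, at 22 ± 0.886 against 21.1 ± 0.743 CPM (SD, n = 4). The control means were 6.39 ± 0.534 CPM in the SLC30A10 set and 7.21 ± 0.976 CPM in the second. Its log2 fold changes were 1.72 ± 0.09 and 1.61 ± 0.08 (SE). Among neural markers TUBB3 fell in both knockouts, by 0.54 and 0.52 on the log2 scale with adjusted p of 5.78e-09 and 3.01e-08 (edgeR quasi-likelihood). The other tested neural markers did not move in common: MAP2 fell by 1.86 in the SLC30A10 knockout and rose by 0.76 in the second, SOX2 fell by 0.22 and rose by 0.36, and RBFOX3 rose by 0.86 in the SLC30A10 knockout and had 0.06 in the second, where it did not pass. The summed level of 5 neural markers, most of it SOX2, ranged from 2262 to 3145 CPM in the SLC30A10 control set and from 2243 to 2406 CPM in its knockout. The same sum was 2986 to 3482 CPM in the second control set and 3638 to 4251 CPM in the second knockout. The part of these markers in the rise of STAC was not tested.

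TMEM132E, the single-pass membrane protein gene, had 3.65, 2.49, 2.87 and 3.78 CPM in the SLC30A10 control libraries and 32.1, 30.3, 34.3 and 29.1 CPM in the knockout. Its levels in the second experiment were 2.94, 4.36, 4.28 and 3.34 CPM in the controls and 17.9, 20.1, 25 and 23.1 CPM in the knockout. Control sets overlapped and the knockouts did not. The lowest knockout library was 4.10 times the highest control library, the widest such gap of the 6 genes. Means were 3.20 ± 0.622 and 31.5 ± 2.28 CPM (SD, n = 4), which is a log2 fold change of 3.30 ± 0.12 (SE), in the SLC30A10 experiment. They were 3.73 ± 0.703 and 21.5 ± 3.16 CPM (SD, n = 4), which is a log2 fold change of 2.52 ± 0.13 (SE), in the second.

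FAM127C, the gag-derived gene of the X chromosome, was found at 2.25, 1.58, 2.68 and 2.13 CPM in the SLC30A10 control libraries and at 20.8, 23.6, 21.5 and 21.0 CPM in the knockout. In the second experiment it was found at 0.857, 2.24, 1.39 and 1.58 CPM in the controls, from 14 to 37 counts, and at 11.1, 9.32, 11.1 and 9.32 CPM in the knockout. The control sets overlapped, and the SLC30A10 knockout lay wholly above the second knockout. Its mean rose 10.1-fold, from 2.16 ± 0.455 to 21.7 ± 1.28 CPM (SD, n = 4), in the SLC30A10 experiment, a log2 fold change of 3.33 ± 0.13 (SE). In the second it rose 6.73-fold, from 1.52 ± 0.573 to 10.2 ± 1.02 CPM, a log2 fold change of 2.74 ± 0.16 (SE).

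CGREF1, the EF-hand protein gene, was the least abundant of the 6 in the controls and differed most between the knockouts. It had 0.853, 1.03, 0.671 and 0.610 CPM in the SLC30A10 control libraries, from 10 to 17 counts, and 23.7, 23.6, 23.5 and 23.5 CPM in the knockout. In the second experiment the controls held 0.612, 0.606, 0.542 and 0.486 CPM, from 8 to 10 counts, and the knockout 3.37, 3.56, 3.21 and 2.54 CPM. Even the lowest library of the second knockout was 2.46 times the highest control library. The mean of the SLC30A10 knockout, 23.6 ± 0.0978 CPM (SD, n = 4), was 7.45 times that of the second knockout, 3.17 ± 0.441 CPM. The log2 fold changes were 4.88 ± 0.13 and 2.48 ± 0.19 (SE). In the other 5 genes the corresponding ratio of knockout means ran from 0.961 for STAC and 1.41 for CLDN1 to 2.13 for FAM127C.

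**Figure D2:**
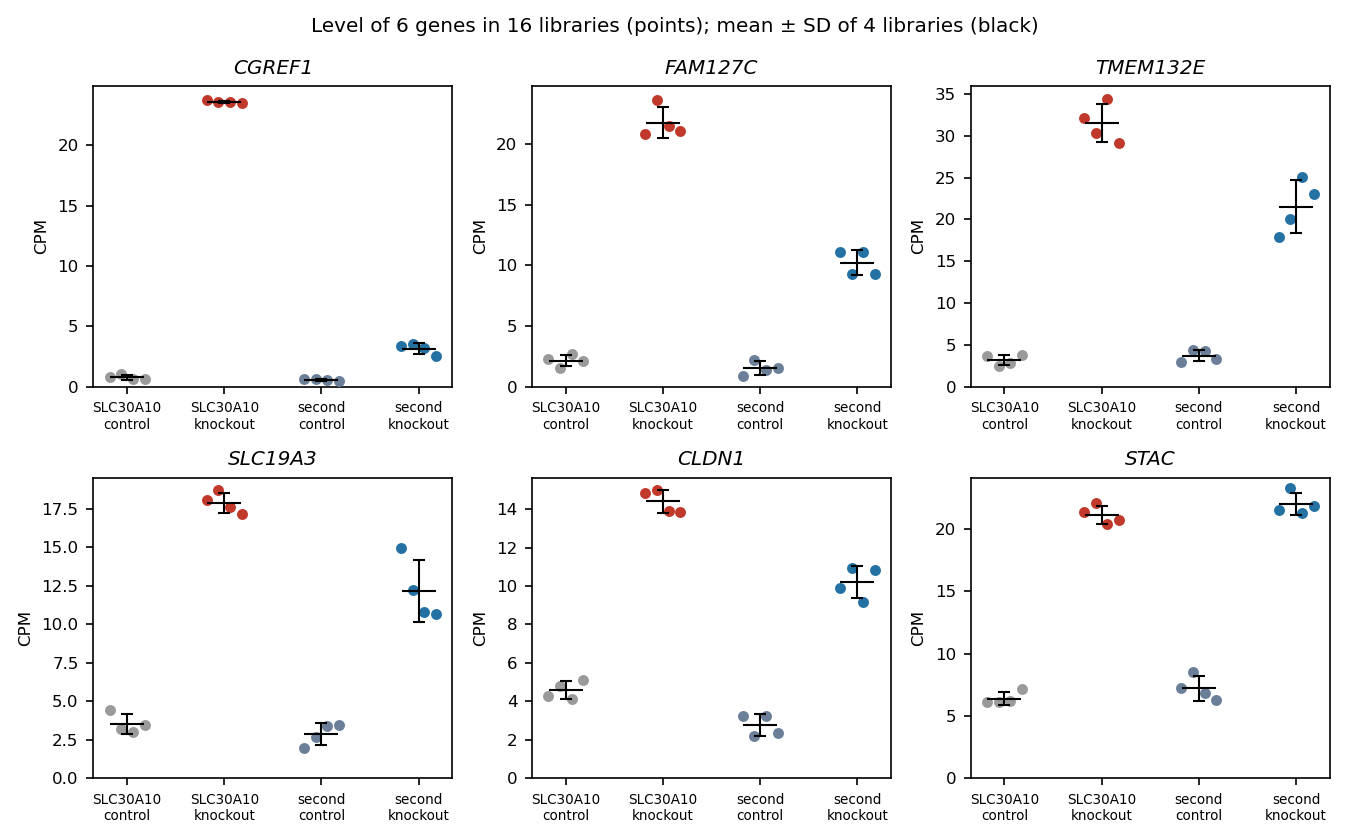
CPM of each of the 6 genes (vertical axes, from 0) in the 4 groups, with a point for each library and the mean ± SD of 4 libraries in black. In every panel the red and blue knockout points lie above the grey control points, and the blue points of the second knockout reach the red ones for STAC but stay far below for CGREF1.

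The rise in the SLC30A10 knockout minus the rise in the second knockout, on the log2 scale, was 2.4 ± 0.30 (SE) for CGREF1, 0.77 ± 0.20 for TMEM132E and 0.58 ± 0.24 for FAM127C. It was 0.26 ± 0.21 for SLC19A3, 0.12 ± 0.12 for STAC and -0.23 ± 0.17 for CLDN1. Both terms of this difference chose the genes, so no test is given. The replicate spread also differed by group. The coefficient of variation of the 6 genes ran from 0.415% to 7.23% in the SLC30A10 knockout and from 4.03% to 16.5% in the second knockout. In the controls, where counts were lower, it ran from 8.36% to 24.1% in the SLC30A10 set and from 10.6% to 37.8% in the second.

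To compare levels between genes, CPM was divided by the length of all annotated exons in kilobases (GENCODE v29, since the authors' annotation is not given in the sources used here). In the SLC30A10 knockout the level per kilobase was highest for FAM127C at 10.7, followed by CGREF1 at 5.84, TMEM132E at 5.15, STAC at 4.80, CLDN1 at 3.93 and SLC19A3 at 2.31 CPM per kb. For the second knockout, FAM127C at 5.04 and STAC at 5.0 CPM per kb were highest and CGREF1 at 0.785 was lowest. In both control sets STAC was highest, at 1.45 and 1.64 CPM per kb, and CGREF1 lowest, at 0.196 and 0.139 CPM per kb.

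The choice of the genes did not use the contrast of the control sets with each other, although the same libraries were the baselines of both rises. Over all tested genes 39.3% differed between the control sets, 18.5% higher and 20.8% lower in the SLC30A10 set. Of the 6 genes, 1 passed: CLDN1 was 0.73 ± 0.14 (log2, SE) higher in the SLC30A10 control set (adjusted p = 0.000168, edgeR). FAM127C had a log2 difference of 0.51 ± 0.22 (adjusted p = 0.0633, edgeR), and CGREF1 of 0.49 ± 0.26 (adjusted p = 0.194, edgeR). The log2 differences of SLC19A3 (0.30 ± 0.18), STAC (-0.17 ± 0.10) and TMEM132E (-0.22 ± 0.17) also missed the threshold. The FAM127C difference passed without replicate 2 of the SLC30A10 control (adjusted p = 0.0262, edgeR) and without replicate 2 of the second control (adjusted p = 0.0101, edgeR).

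Setting each knockout against the other experiment's control set showed how far the rises depend on the baseline. In that exchange group and experiment cannot be told apart. No rise changed direction, which the choice largely fixed, since every knockout library lay above every control library for the 6 genes. CLDN1 moved most, from 1.65 to 2.38 ± 0.11 (log2, SE) in the SLC30A10 knockout and from 1.88 to 1.15 ± 0.11 in the second knockout. CGREF1 went to 5.37 ± 0.13 and 1.99 ± 0.18, and FAM127C to 3.83 ± 0.14 and 2.24 ± 0.15. With both control sets pooled, the 6 log2 fold changes ran from 1.64 for STAC to 5.13 for CGREF1 in the SLC30A10 knockout. They ran from 1.52 for CLDN1 to 2.64 for TMEM132E in the second knockout.

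**Figure D3:**
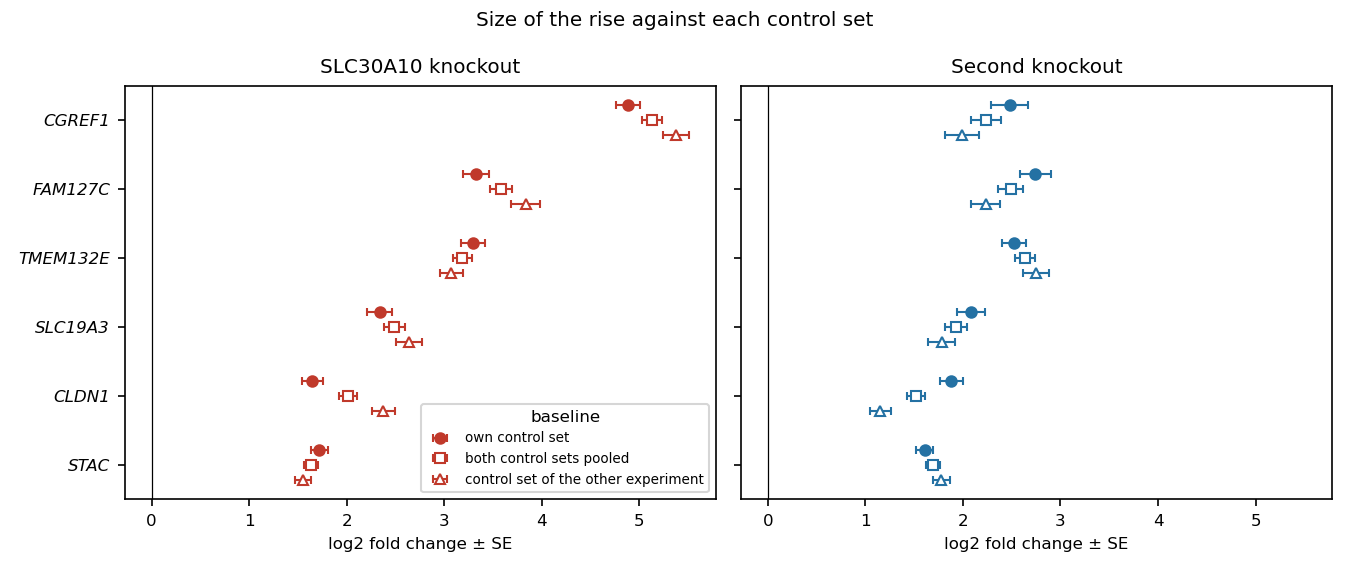
Log2 fold change ± SE of the 6 genes in the SLC30A10 knockout (left) and the second knockout (right) against the own control set (filled circles), both control sets pooled (squares) and the control set of the other experiment (triangles). All values lie above 0, which the choice of the genes largely fixed. The 3 markers are furthest apart for CLDN1, at 1.65 to 2.38 on the left and 1.15 to 1.88 on the right.

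Relatives and pathway partners of the 6 genes were read from 7 lists. Of 76 tested list genes, 0 were called higher in both knockouts by edgeR at an adjusted p under 0.05, 2 were lower in both (PEG10 and AMOT) and 3 moved in opposite directions (MPDZ, F11R and MPP5, the last named after its values were seen). Over all tested genes 1.92% were higher in both, a share at which 0 of 76 says nothing particular about these lists. At an unadjusted p under 0.05 by edgeR 2 were higher in both, and 0 were at an adjusted p under 0.05 by DESeq2. The shares of all tested genes lower in both or moved in opposite directions are not given here. The counts of 2 lower in both and 3 in opposite directions are therefore not read as particular to these lists. Of 23 genes of thiamine transport, activation and use, 19 were tested. In the SLC30A10 knockout 7 of these passed, 4 higher and 3 lower, or 36.8% against 41.4% of all tested genes, and the median log2 fold change was -0.012 against -0.0048 over all. The pyruvate dehydrogenase subunit PDHA1 (log2 fold change 0.36 ± 0.03, SE) and the branched-chain subunit DBT (0.32 ± 0.05) rose. The oxoglutarate dehydrogenase subunit DLST fell by 0.27 and the branched-chain subunit BCKDHA fell by 0.40. In the second knockout only DLAT, a pyruvate dehydrogenase subunit, passed, with a log2 fold change of -0.13 ± 0.04, and the list's median was -0.0057 against -0.0024. That call was lost without any one of second control replicates 3 and 4 or second knockout replicates 1, 2 and 3. SLC19A1, the folate carrier of the family, had log2 fold changes of -0.03 ± 0.07 and 0.02 ± 0.08, and neither passed. SLC19A2, the other thiamine transporter, rose by 0.17 ± 0.07 in the SLC30A10 knockout (adjusted p = 0.0423, edgeR) and had -0.09 ± 0.07 in the second.

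Among 24 other claudins and claudin-domain genes, 8 were tested. CLDN15 fell by 0.51 and CLDN10 fell by 0.90 on the log2 scale in the SLC30A10 knockout, 2 of 8 (25% against 41.4% of all tested genes), with a list median of 0.05. In the second knockout CLDN3 fell by 0.57, 1 of 8 (12.5% against 13.7%), with a list median of -0.024. The count of 2 in the SLC30A10 knockout became 1 without knockout replicate 1 or 3. CLDN16, which overlaps CLDN1, had 0 to 6 counts. Of 24 tested genes of other tight junction proteins, 13 passed in the SLC30A10 knockout, 4 higher and 9 lower (54.2% against 41.4% of all tested genes, median -0.15), and 7 in the second, 2 higher and 5 lower (29.2% against 13.7%, median -0.076). The scaffold gene MPDZ went opposite ways, with log2 fold changes of -1.11 ± 0.07 and 0.88 ± 0.07 (SE). Between the control sets, MPDZ was 0.85 higher (log2) in that of SLC30A10. The junctional adhesion molecule gene F11R rose by 0.44 ± 0.06 in the SLC30A10 knockout and fell by 0.27 in the second. JAM2 fell by 0.86 and the angiomotin gene AMOT fell by 0.59 in the SLC30A10 knockout. AMOT had a log2 fold change of -0.23 ± 0.06 in the second knockout, where the scaffold gene TJP3 fell by 1.15. The count of 7 in the second knockout became 4 without second control replicate 2 or 3 or second knockout replicate 1 or 2.

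The list of STAC relatives and voltage-sensing or calcium-release channel genes had 13 tested members of 16. In the SLC30A10 knockout 7 passed, 4 higher and 3 lower (53.8% against 41.4% of all tested genes, median log2 fold change -0.07). RYR1, the calcium release channel of skeletal muscle, rose by 2.08 ± 0.23 (log2, SE), from 0.913 ± 0.443 to 3.89 ± 0.232 CPM (SD, n = 4). RYR3 fell by 1.01, the channel subunit gene CACNB3 fell by 0.19, and STAC2 rose by 0.30 ± 0.08. Without SLC30A10 knockout replicate 2 the 7 became 4. In the second knockout 0 of 13 passed by edgeR (median -0.00092), where 13.7% of all tested genes did. RYR1 there had 1.12 ± 0.313 CPM in the control and 1.71 ± 0.362 CPM in the knockout, with an adjusted p of 0.120 by edgeR, and its 2 effects differed by 1.47 ± 0.35 (log2, adjusted p = 0.00202, edgeR), where 31.3% of all genes differed. At an unadjusted p under 0.05, 3 of the 13 passed in the second knockout by edgeR, and 0 passed at an adjusted p under 0.05 by DESeq2. Without second knockout replicate 4, 1 of the 13 passed. STAC3, the muscle member of the family, had log2 fold changes of -0.07 ± 0.15 and 0.35 ± 0.14, and neither passed.

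Of the TMEM132 family, TMEM132A was tested, at 68.1 to 75.5 CPM in the group means, with log2 fold changes of 0.14 ± 0.06 and 0.08 ± 0.06 (adjusted p = 0.0623 and 0.404, edgeR). The former passed without SLC30A10 control replicate 4 or SLC30A10 knockout replicate 2. TMEM132B had 0 to 3 counts, and TMEM132C and TMEM132D had 0 counts in all libraries. Genes derived from the same retrotransposon family as FAM127C gave 8 tested members. In the SLC30A10 knockout 4 of 8 passed (50% against 41.4% of all tested genes), with FAM127A (0.26 ± 0.05), RGAG4 (0.36 ± 0.09) and C22orf29 (0.19 ± 0.07, log2, SE) higher and the imprinted gene PEG10 lower, where it fell by 0.61. LDOC1L rose by 0.23 ± 0.06 in the second knockout and PEG10 had a log2 fold change of -0.16 ± 0.05, 2 of 8 (25% against 13.7%). The count of 2 became 1 without second control replicate 3 or 4. FAM127B, whose transcript shares windows with FAM127C, had 35.4 and 36.9 CPM in the SLC30A10 control and knockout and 33.2 and 29.8 CPM in the second experiment, and passed in neither. The relatives of CGREF1 (the EF-hand protein gene MCFD2, its partner LMAN1 and the growth regulator CGRRF1) had log2 fold changes between -0.05 and 0.03 in both knockouts, and 0 of 3 passed in either by edgeR. Of these, 0 passed at an unadjusted p under 0.05 by edgeR and 0 at an adjusted p under 0.05 by DESeq2.

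**Figure D4:**
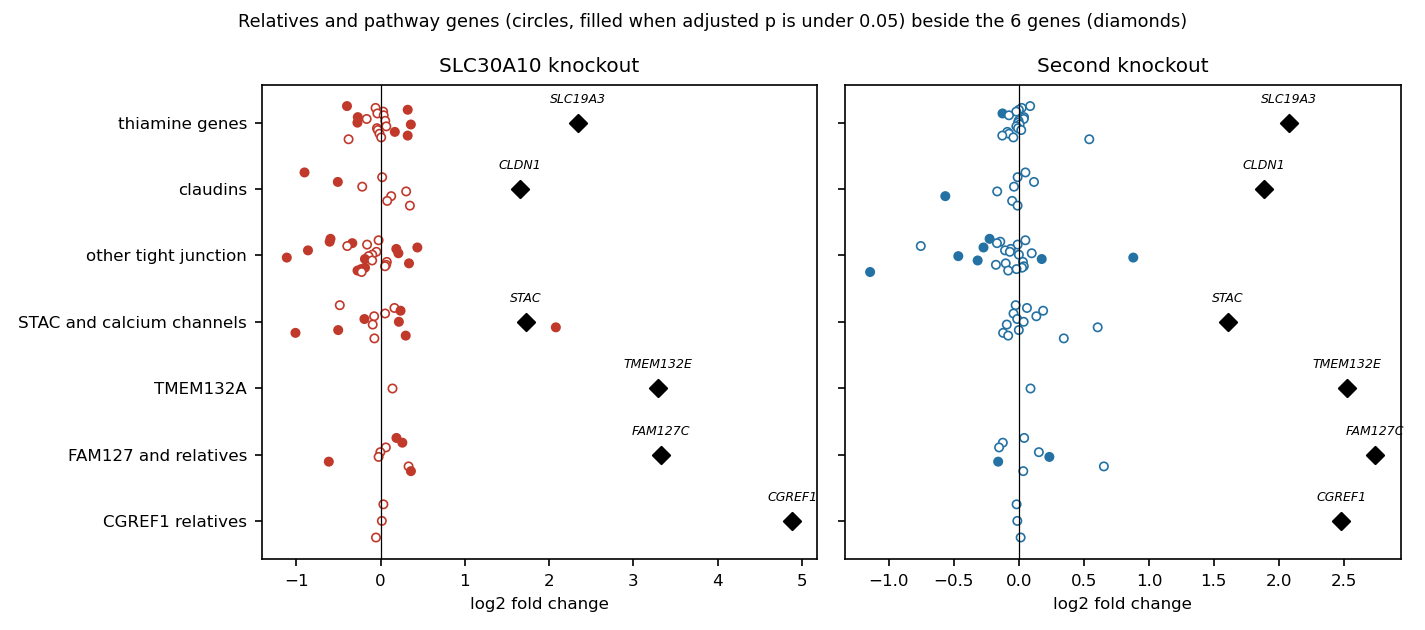
Log2 fold change (horizontal axis) of the tested genes of 7 lists (circles, filled when the adjusted p is under 0.05) in the SLC30A10 knockout (left) and the second knockout (right), with the 6 genes as black diamonds in the row of their relatives. RYR1 at 2.08 is the list gene furthest to the right on the left side, and the other list genes lie at or below 0.44 there.

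The nearest tested genes along the chromosomes, 3 on each side of each gene, were examined in the same way. Of these 36 neighbours, 19 passed in the SLC30A10 knockout, 9 higher and 10 lower (52.8% against 41.4% of all tested genes), and 6 in the second knockout, 2 higher and 4 lower (16.7% against 13.7%). Of the 36, 0 were called higher in both knockouts by edgeR, 0 at an unadjusted p under 0.05 and 0 by DESeq2, where 1.92% of all tested genes were higher in both by edgeR, so that this 0 says nothing particular about the neighbours. Lower in both were 3 of the 36. Around FAM127C, 4 of 6 neighbours rose in the SLC30A10 knockout, where 21.2% of all tested genes were higher. They were FAM122C by 0.66 ± 0.12, ZNF75D by 0.67 ± 0.07, MOSPD1 by 0.36 ± 0.09 and FAM127A by 0.26 ± 0.05 (log2, SE), against 3.33 for FAM127C. The other neighbours, SMIM10 (0.03 ± 0.07) and FAM127B (0.06 ± 0.06), both 28 kb away, did not pass there. A set of 6 genes is too small to read the count as particular to the region. In the second knockout 0 of the 6 neighbours passed (edgeR), where 13.7% of all tested genes did. Their log2 fold changes ran from -0.15 to -0.00086. Of them 2 had an unadjusted p under 0.05 by edgeR and 0 had an adjusted p under 0.05 by DESeq2. What part the rises of the 4 neighbours in the SLC30A10 knockout have in the value of FAM127C was not tested. The genes beside CGREF1 changed little. KHK, which overlaps it, rose by 0.31 ± 0.07 in the SLC30A10 knockout and had -0.04 ± 0.07 in the second, and ABHD1 on the other side passed in neither. The genes beside SLC19A3, AGFG1 and DNER, lie 123 and 1640 kb away. AGFG1 passed in neither knockout, and DNER, a Notch ligand gene, fell by 1.46 in the second. Its level there was low, at 0.562 CPM in the control set and 0.198 CPM in the knockout, the latter near 3 counts. Around CLDN1, CCDC50 rose by 0.66 ± 0.06 and BCL6 by 0.57 ± 0.12 in the second knockout, while in the SLC30A10 knockout CCDC50 fell by 0.23, BCL6 fell by 0.40 and FGF12 fell by 1.29. Beside TMEM132E and STAC the nearest tested genes, CCL2, CCT6B, PDCD6IP and TRANK1, passed in neither knockout.

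**Figure D5:**
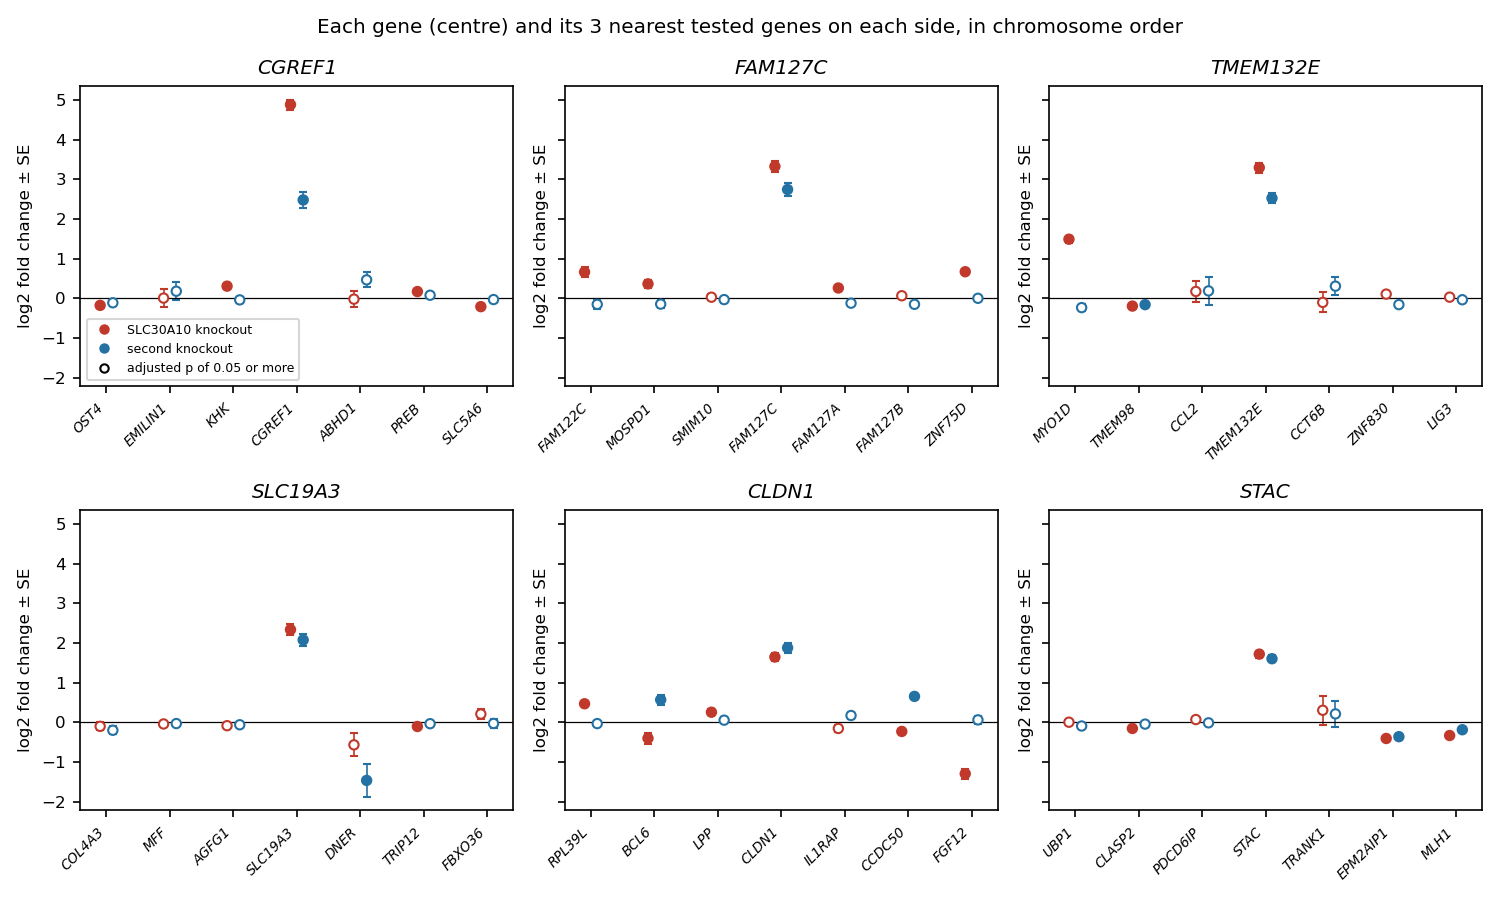
Log2 fold change ± SE of each of the 6 genes (centre of each panel) and its 3 nearest tested genes on each side in chromosome order, in the SLC30A10 knockout (red) and the second knockout (blue), with filled points for neighbours at an adjusted p under 0.05 and for the 6 genes themselves. In both colours the central gene stands above its 6 neighbours, of which the highest is MYO1D at 1.49 in the SLC30A10 knockout.

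Genes whose profile over the 16 libraries was most like each of the 6 were ranked among genes averaging 1 CPM or more. Likeness is the mean absolute difference of log2 CPM after each profile was centred on its own mean, so smaller values are more alike. It uses the same libraries by which the 6 genes were chosen. Genes with large rises in both knockouts are thus near one another largely by that choice, and the ranks are a description with no test. FAM127C and TMEM132E were each other's nearest of 14247 candidates, at 0.339 (log2 units), and SLC19A3 was next after GATA5 and SHISA4 respectively, at 0.460 and 0.412. The nearest to SLC19A3 were GSAP at 0.253, ZNF256 at 0.284 and CLDN1 at 0.319. The nearest to CLDN1 were THY1 at 0.225, PRAME-2 at 0.286 and ZNF256 at 0.295. STAC had the closest match of the 6, LXN, at 0.127, followed by PRAME-2 at 0.199 and ANKRD34B at 0.208. CGREF1 had the most distant, with FAM127C at 0.698, SYT11 at 0.739 and GATA5 at 0.761. LXN ran from 2.42 and 2.37 CPM in the control sets to 6.58 and 8.01 CPM in the SLC30A10 and second knockouts. GATA5 and SHISA4, the latter second for TMEM132E at 0.407, had means under 4 CPM in every group.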

How the data were processed

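Poly-A RNA of 16 HAP1 libraries was sequenced as paired reads of 100 bases on a DNA nanoball platform, per the labels. The authors deposited whole-number counts per gene symbol. HISAT2, featureCounts, DESeq2 and the builds hg38 and GRCh38 are named, with no roles, order or versions, per the submitters' processing notes. The annotation and the use of strand are not given in the sources used here. The table of normalized values was not used. The gene deleted in the second knockout is not reported here.

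Counts were fitted with edgeR 4.0.16 in R 4.3.3: filterByExpr set to a count of 10 and a summed count of 15, trimmed mean of M-values scaling, 1 mean for each of the 4 groups over all 16 libraries, quasi-likelihood F tests, and Benjamini-Hochberg adjustment over all 15569 tested genes with a threshold of 0.05. SE is the absolute log2 fold change divided by the square root of F. Likeness used log2 CPM with a prior count of 2. Every replicate pair differed by more than sampling noise (chi-square per degree of freedom 1.64 to 6.83). The procedure was tested on simulated counts. Of the tested genes, 90.8% were placed in RefSeq GRCh38.p14 order.

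The 6 genes, the lists and the rules were chosen with earlier results of these data known. List genes were named by smallest adjusted p, up to 4 for each list and knockout, and the nearest family members and chromosomal neighbours, the 3 nearest genes by likeness and the 3 genes just outside the choice were also eligible. Neighbours named are those directly beside a gene or changed most. Alternatives were other size factors, library totals, DESeq2 1.42.0, no filter, a prior count of 0.5, pooled or exchanged control sets, 8-library fits, a replicate block and leaving out each library.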

Additional observations from a re-analysis of the deposited data

Results flagged for a closer look

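Among 24 sets of 4 libraries (6 genes in 4 groups), 2 held a library apart from the other 3 by Dixon's test, where chance gives about 1.2. CGREF1 in SLC30A10 knockout replicate 1 was at 23.7 CPM, against 23.5 to 23.6 CPM in the other 3, where the gap is 0.915 of the whole range. The counts of replicates 1 to 4 were 382, 379, 384 and 378, so replicate 1 was not the highest by count. STAC in SLC30A10 control replicate 4 was at 7.19 CPM, against 6.09 to 6.16 CPM.

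The effects of the 2 knockouts differed for the following relatives and neighbours by the edgeR test of the difference (SLC30A10 knockout effect minus second knockout effect, log2, adjusted p under 0.05). Among genes of thiamine transport and use the difference was 0.26 for SLC19A2, 0.35 for PDHA1, 0.32 for DBT, -0.31 for DLST and -0.48 for BCKDHA. Among junction genes it was -0.62 for CLDN15, 0.69 for CLDN3, -1.99 for MPDZ, -0.75 for JAM2, -0.37 for AMOT, 0.71 for F11R and 0.92 for TJP3. It was 0.38 for STAC2 and 1.47 for RYR1. In the retrotransposon-derived genes it was 0.38 for FAM127A, -0.45 for PEG10 and -0.26 for LDOC1L. Among chromosomal neighbours it was 0.35 for KHK, 0.82 for FAM122C, 0.67 for ZNF75D, 1.73 for MYO1D, -0.97 for BCL6, -0.88 for CCDC50 and -1.36 for FGF12.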

How the results depend on the processing

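Of 192 recomputed knockout fold changes of the 6 genes, 182 stayed within the spread between replicates, and the other 10 moved with pooled or exchanged control sets. In these alternatives 0 changed sign, which the choice of the genes largely fixed, so it is no support for the rises. Of 78 values between the control sets, 74 kept their side of the threshold, and the other 4, all of FAM127C, passed. The adjusted p of FAM127C was 0.0412 with no filter and 0.0352 with DESeq2. Of 66 counts over all genes, 64 stayed within 1.5 times. The exceptions are the 2132 genes of the second knockout, which became 5341 with both control sets pooled and 7445 with control sets exchanged; the cause was not tested. Leaving out 1 library gave 5657 to 6154 genes in the SLC30A10 knockout, 1570 to 2146 in the second, 5053 to 6125 between the control sets and 4442 to 5044 for the difference of effects. Of 528 list counts, 470 stayed within 1.5 times, 33 were higher and 25 lower. The claudin count of 2 in the SLC30A10 knockout became 6 with no filter.

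Same-numbered libraries had mean correlations of -0.032 between SLC30A10 knockout and control, 0.047 between second knockout and control, and 0.018 between the control sets. The best match had the same number for 0, 1 and 3 of 4 libraries respectively. These values do not settle whether same-numbered libraries were handled together. With the replicate block 6497, 2160, 6134 and 4882 genes passed in the SLC30A10 knockout, the second knockout, between the control sets and for the difference. CGREF1 rests on 8 to 17 counts in each control library, which limits the precision of its fold.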

Other observations

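With no minimum level, 16 genes were called higher in both knockouts with a smaller log2 fold change at least that of STAC, and 10 of these are not among the 6 genes. All 10 had a mean under 5 CPM in at least one comparison, and they were chosen after their values were seen, so no test is given. KCNJ12, an inward rectifier potassium channel gene, went from 1.61 ± 0.129 to 7.39 ± 0.821 CPM (SD, n = 4) in the SLC30A10 experiment and from 0.729 ± 0.180 to 3.67 ± 0.532 CPM in the second. ZNF256, a zinc finger gene, went from 1.28 ± 0.239 to 6.04 ± 0.653 CPM and from 1.43 ± 0.147 to 4.97 ± 0.110 CPM. GATA5, a transcription factor gene of heart and gut development, went from 0.609 ± 0.277 to 3.65 ± 0.538 CPM and from 0.228 ± 0.0306 to 1.75 ± 0.431 CPM. STXBP6 reached a higher level in the second knockout, 3.14 ± 0.558 CPM, than in the SLC30A10 knockout, 0.899 ± 0.166 CPM. The others were PTGER2, SHISA4, LOC101928040, CPPED1, HOXC-AS2 and GSAP.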
